A study of Mus musculus with 4 samples.

Results

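Islets of Langerhans from CCR2-DTR+/- females at 6 months of age were compared with islets from their WT (CCR2-DTR-/-) littermates of the same age, with 1 single-cell RNA library for each genotype. Barcodes, each standing for 1 captured cell, were sorted into 7 classes by their own RNA. Beta barcodes had at least 20% of their transcript counts (unique molecular identifiers, UMIs) from the insulin genes Ins1 and Ins2. Alpha barcodes had at least 10% from Gcg, delta barcodes at least 5% from Sst, and gamma barcodes at least 5% from Ppy. Endothelial, mesenchymal and macrophage barcodes had at least 0.5% of UMIs from 12 marker genes of that type, with at least 4 of the 12 present. The 7 classes held 5946 barcodes at 6 months, 2583 from WT and 3363 from CCR2-DTR, of 25220 barcodes kept in the 4 libraries of the study. The other 2 libraries, WT and CCR2-DTR at 1 month of age, are given beside the results as values.

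All animals were females on a C57b6/J background. Newborns of both genotypes, controls included, received diphtheria toxin in 4 injections 48 hours apart, the first at postnatal day 2, and were kept on regular chow after weaning at 21 days. The CCR2-DTR transgene places the toxin's receptor on cells that express the chemokine receptor CCR2. The toxin was given months before these islets were taken. Islets were freed by collagenase, enriched on Ficoll and picked by hand, and 300 of them, from a pool of 2 to 3 females, went into each 10x Genomics Chromium library. With 1 library for each group no test between groups was possible and no p-value is given. The intervals given reflect the counting of UMIs alone and leave out variation among animals, isolations and libraries.

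Islet endocrine cells make insulin, glucagon, somatostatin or pancreatic polypeptide, and they lie among fenestrated capillaries, pericytes, fibroblasts and resident macrophages. CCR2 guides monocytes out of the bone marrow into tissues, where they can become macrophages. Some genes respond in nearly any cell type, so their levels can differ across classes together. Immediate early genes such as Fos and Egr1 are switched on within minutes of a stimulus, including tissue digestion, heat shock genes encode chaperones that refold damaged proteins, and glucocorticoid-responsive genes such as Fkbp5 follow circulating steroid hormone.

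Marker RNA was summed in each class. The same 12 markers had sorted the endothelial, mesenchymal and macrophage barcodes. High sums in the own class follow from that rule and do not check the names. In their own class the 12 endothelial markers summed to 24480 counts per 1000000 UMIs of the class (CPM) in WT and 24147 in CCR2-DTR, and to at most 626 CPM in the other classes. Macrophage markers summed to 26838 and 29475 CPM in macrophage barcodes and to at most 104 CPM elsewhere. Mesenchymal markers summed to 29857 and 42679 CPM in mesenchymal barcodes and to at most 93.6 CPM elsewhere. Hormone RNA reached every class: markers of beta cells still made up 41036 and 39771 CPM in endothelial barcodes. The gamma barcodes lacked UMIs for 1 of 5 gamma markers in both libraries.

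The deposited libraries held 5089 barcodes and 60315217 UMIs for WT at 6 months and 7113 barcodes and 81917159 UMIs for CCR2-DTR at 6 months. After filtering, 3633 and 4252 barcodes were kept. The libraries differed in 3 measures that bear on all classes. More barcodes of the CCR2-DTR library exceeded 15% mitochondrial UMIs, 17.7% against 10.6%, and the same order was seen at 1 month (15.2% against 5.46%). Fewer WT barcodes fell into a class, 71.1% against 79.1%, compared with 92.5% and 92.2% at 1 month. UMIs of digestive enzymes, products of acinar cells, were present in 51.3% of WT and 94.9% of CCR2-DTR endothelial barcodes, and 55.3% and 96.8% of beta barcodes. Only 6 barcode sequences occurred in both 6-month libraries. The part of these differences in the results below was not tested.

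Beta barcodes were 23.9% of kept barcodes in WT (95% Clopper-Pearson interval 22.6% to 25.4%, 870 barcodes) and 34.1% in CCR2-DTR (32.7% to 35.6%, 1452 barcodes). Alpha barcodes were 20.1% and 21.6% (731 and 918). Delta barcodes were 8.64% and 6.91% (314 and 294), and gamma barcodes were 6.19% and 3.62% (225 and 154). Endothelial barcodes were 8.37% and 7.81% (304 and 332), mesenchymal barcodes 1.51% and 2.12% (55 and 90), and macrophage barcodes 2.31% and 2.89% (84 and 123). These shares depend on the barcodes left without a class, 911 in WT and 691 in CCR2-DTR. Median UMIs per barcode were close between the libraries, 26780 and 26577 in beta barcodes and 5763 and 5611 in endothelial barcodes.

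For each class the counts of its barcodes were summed per library, and the ratio of CPM, CCR2-DTR over WT, was taken on the log2 scale less the median ratio of all genes measured in that class. A gene was measured with at least 50 CPM in 1 of the 2 libraries and 10 UMIs over both. It counted as past 1.5-fold when the centred ratio passed 1.5 and its 95% interval left out equality. By this rule beta barcodes had 5 genes higher and 8 lower in CCR2-DTR of 1881 measured (0.691% in either direction). Alpha barcodes had 19 higher and 5 lower of 2331 (1.03%), delta barcodes 22 and 8 of 3279 (0.915%), and gamma barcodes 8 and 5 of 2205 (0.59%). Endothelial barcodes had 76 higher and 49 lower of 3819 (3.27%). Macrophage barcodes had 147 and 115 of 2900 (9.03%), and mesenchymal barcodes 484 and 299 of 4243 (18.5%). When the barcode with the most UMIs of a gene was left out of each library, the percentages were 0.691 in beta, 0.901 in alpha, 0.854 in delta, 0.499 in gamma, 3.27 in endothelial, 7.86 in macrophage and 16.2 in mesenchymal barcodes. Macrophage and mesenchymal barcodes hold the fewest UMIs, so their intervals are the widest, and counts of genes are not comparable between classes of different depth.

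**Figure D1:**
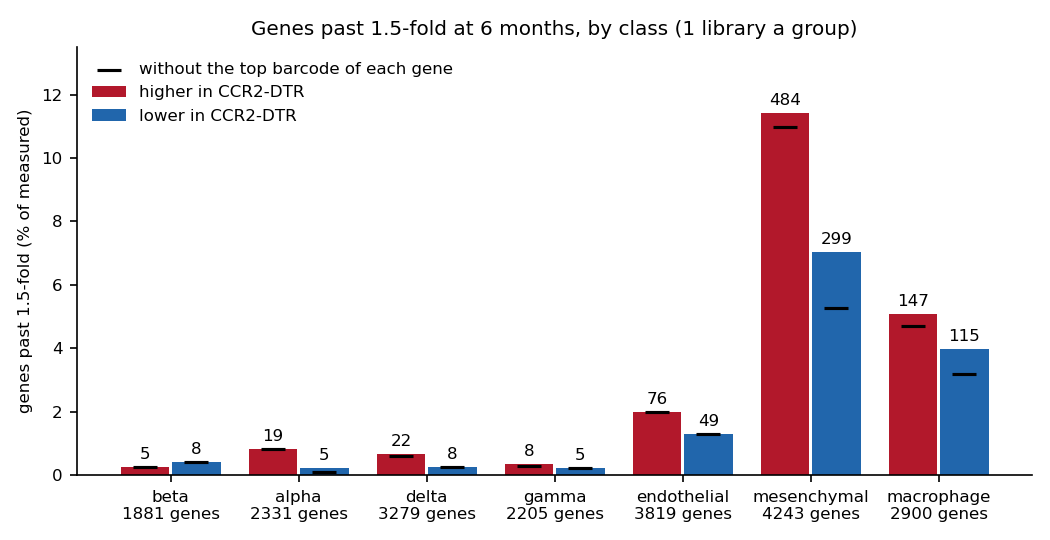
Percent of measured genes past 1.5-fold in each class, CCR2-DTR against WT at 6 months, with bars for genes higher and lower in CCR2-DTR. The 4 endocrine classes stay near 1% or below, and mesenchymal barcodes reach 11.4% higher and 7.05% lower.

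Few genes differed in many classes. Of 6328 genes measured in at least 1 class, 627 were past 1.5-fold higher in 1 class, 44 in 2, 8 in 3, 3 in 4 and 2 in 5. In the other direction 434 genes were past 1.5-fold lower in 1 class, 17 in 2, 2 in 3 and 2 in 4. A second rule asked for a gene measured in at least 5 classes and at least 1.2-fold different in the same direction in every class where it was measured. Of 1958 genes measured in at least 5 classes, 5 were higher by this rule (0.255%) and 2 were lower (0.102%). The 5 were Ctrb1, Abca1, Rhob, Hsph1 and Hspa8, and Prlr was among the 2.

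Prlr, the prolactin receptor, was lower in the 6 classes where it was measured and past 1.5-fold in gamma, endothelial and macrophage barcodes. Its level in beta barcodes was 941 CPM in WT and 692 CPM in CCR2-DTR (log2 ratio -0.42), with 691 and 658 CPM at 1 month. In endothelial barcodes it was 117 and 65.5 CPM at 6 months (log2 ratio -0.83) and 27.4 and 81.6 CPM at 1 month. In gamma barcodes it was 63.1 and 32.0 CPM at 6 months and 36.6 and 63.2 CPM at 1 month. So the lower level in CCR2-DTR in those 2 classes belonged to the older pair, and the younger pair had the opposite order. Both classes were far below beta barcodes in Prlr. Free RNA was not subtracted, and its part in their levels was not tested.

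Among the genes higher in every measured class, Ctrb1 encodes the acinar protease chymotrypsinogen. It was at 5.60 CPM in WT and 54.0 CPM in CCR2-DTR alpha barcodes, and at 29.97 and 177 CPM in endothelial barcodes. At 1 month the alpha values were 1.97 and 53.0 CPM, so both CCR2-DTR libraries were high and both WT libraries low. Abca1, a cholesterol exporter, was measured in 5 classes with log2 ratios from 0.35 to 0.61. It was below the measuring limit in endothelial barcodes, where its level was 28.9 CPM in WT and 23.8 CPM in CCR2-DTR. Rhob, a small GTPase that is itself induced early by stimuli, had ratios from 0.30 to 0.58 in 6 classes and passed 1.5-fold in 0 of them.

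**Figure D2:**
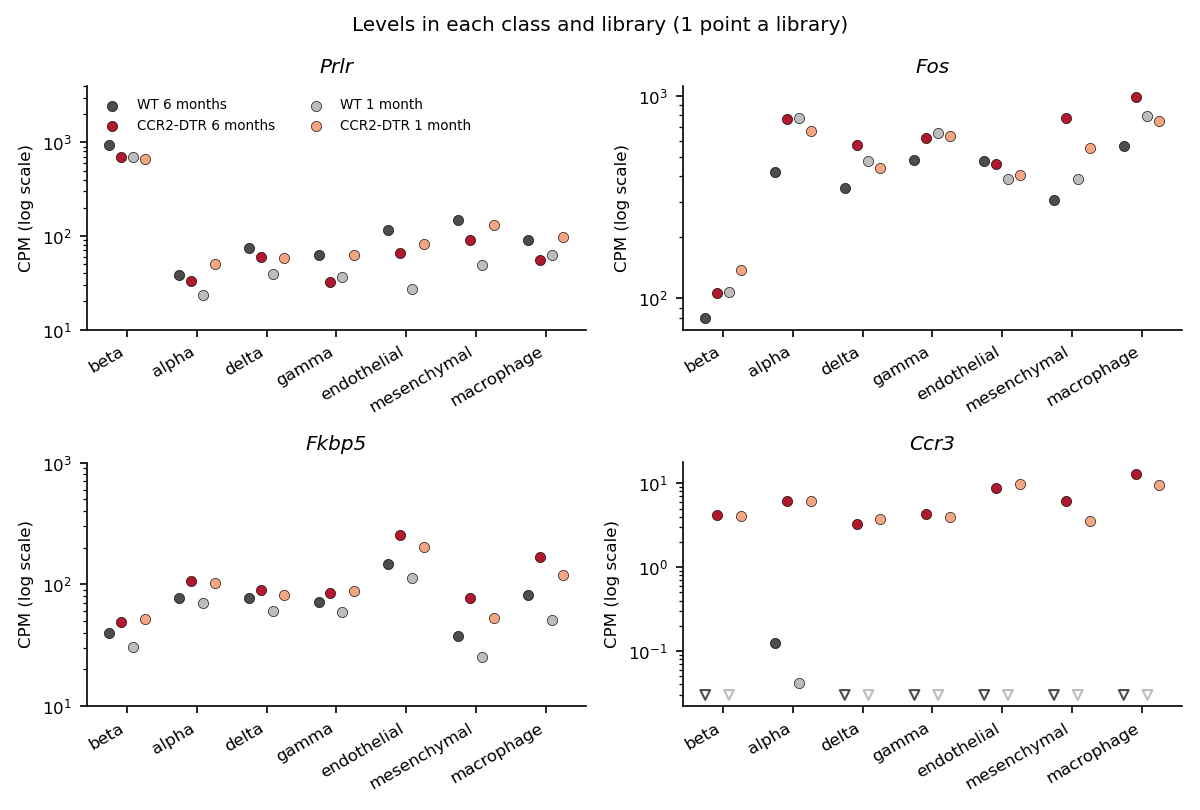
Level in CPM, on log axes, of genes that differed across classes, in each class and each of the 4 libraries. Prlr is lower in CCR2-DTR than in WT at 6 months in all 7 classes, Fkbp5 is higher in CCR2-DTR than in WT at both ages, and triangles at the bottom edge mark libraries with 0 UMIs.

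Members of the glucocorticoid-responsive list were past 1.5-fold mostly outside the endocrine classes, where more of them were measured. In endothelial barcodes 5 of 15 measured members were past 1.5-fold higher and 0 lower (against 1.99% of all measured genes higher), in mesenchymal barcodes 9 of 15 (against 11.4%), and in macrophage barcodes 2 of 13 (against 5.07%). In the endocrine classes 0 members were past 1.5-fold higher, and 1, Cebpd in beta barcodes, was lower (against 0.425%). Only 7 members were measured in beta, 7 in alpha, 7 in delta and 6 in gamma barcodes. Over all measured genes 0.266%, 0.815%, 0.671% and 0.363% were higher in these classes. A count of 0 therefore does not set the list apart from all measured genes there. The list's median log2 ratio was 0.16 in beta, 0.30 in alpha, 0.15 in delta, 0.22 in gamma, 0.28 in endothelial, 1.00 in mesenchymal and 0.39 in macrophage barcodes, where 0 is the median of all measured genes. At 1 month the medians were 0.20, 0.03, 0.30, 0.11, 0.52, 0.44 and 0.53 in the same order.

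Fkbp5, a chaperone of the glucocorticoid receptor and one of its best known targets, was higher in CCR2-DTR in all 7 classes and at both ages. In endothelial barcodes it was at 146 CPM in WT and 255 CPM in CCR2-DTR at 6 months (log2 ratio 0.80, 95% interval 0.59 to 1.01), and at 113 and 202 CPM at 1 month. In macrophage barcodes it was at 81.0 and 168 CPM at 6 months (1.04, 0.57 to 1.52) and at 50.9 and 120 CPM at 1 month. In alpha barcodes it was at 77.7 and 106 CPM (0.43) and at 69.6 and 103 CPM at 1 month. In delta barcodes the ratio was 0.25, below the 1.2-fold limit, so Fkbp5 is not among the 5 genes higher in every measured class. Zbtb16, a transcriptional repressor induced by glucocorticoids, was at 19.6 CPM in WT and 163 CPM in CCR2-DTR endothelial barcodes (log2 ratio 3.05), against 200 and 224 CPM at 1 month. There the WT 6-month library stood below the other 3.

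The immediate early list was higher in CCR2-DTR in alpha, delta, mesenchymal and macrophage barcodes and near the median gene in endothelial barcodes. In alpha barcodes all 12 measured members exceeded the median gene and 10 were past 1.5-fold higher (against 0.815% of all measured genes), with a median log2 ratio of 0.75. In delta barcodes 5 of 11 were past 1.5-fold (against 0.671%, median 0.53), and in gamma barcodes 2 of 12 (against 0.363%, median 0.43). In beta barcodes 0 of 6 were (against 0.266%, median 0.21). In macrophage barcodes 6 of 16 were past 1.5-fold (against 5.07%, median 0.35), in mesenchymal barcodes 12 of 18 (against 11.4%, median 0.94), and in endothelial barcodes 1 of 19, Ier3 (against 1.99%, median 0.08). At 1 month the medians were 0.10 in beta, -0.15 in alpha, -0.14 in delta, -0.18 in gamma, 0.06 in endothelial, 0.34 in mesenchymal and -0.17 in macrophage barcodes.

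Fos, a subunit of the AP-1 transcription factor, was at 421 CPM in WT and 764 CPM in CCR2-DTR alpha barcodes (log2 ratio 0.84, 95% interval 0.80 to 0.88), against 773 and 672 CPM at 1 month. In delta barcodes Fos was at 351 and 570 CPM, and in macrophage barcodes at 564 and 985 CPM. In endothelial barcodes it was at 475 and 460 CPM (log2 ratio -0.05). All 10 members past 1.5-fold in alpha barcodes, and all 5 in delta barcodes, had their lowest level of the 4 libraries in WT at 6 months. Egr1, a zinc finger transcription factor, was at 240 and 413 CPM in alpha barcodes, with 557 and 511 CPM at 1 month. Both 1-month libraries were therefore above both 6-month libraries for Egr1 in alpha barcodes.

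Dusp1, a phosphatase that shuts off MAP kinases, was the member past 1.5-fold in the most endocrine classes together with Ier2. It was at 48.8 CPM in WT and 105 CPM in CCR2-DTR alpha barcodes (log2 ratio 1.09), at 25.8 and 54.2 CPM in delta barcodes (1.10), and at 43.9 and 68.7 CPM in gamma barcodes (0.66). Its promoter is shown because it holds the full cyclic AMP response element TGACGTCA, which 1.79% of 32851 promoter windows of 300 bases also hold on either strand. The stretch at chr17:26508473-26508722 (RefSeq, GRCm38.p6, minus strand) is the 250 bases before the start of the gene, with the match in capitals. The promoter of Fos was searched in the same way and holds 0 matches.
Dusp1: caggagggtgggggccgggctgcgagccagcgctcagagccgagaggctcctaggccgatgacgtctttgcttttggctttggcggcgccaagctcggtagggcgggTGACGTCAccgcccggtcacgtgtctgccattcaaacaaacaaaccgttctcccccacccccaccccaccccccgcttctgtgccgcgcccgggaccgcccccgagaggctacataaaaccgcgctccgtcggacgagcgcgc

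**Figure D3:**
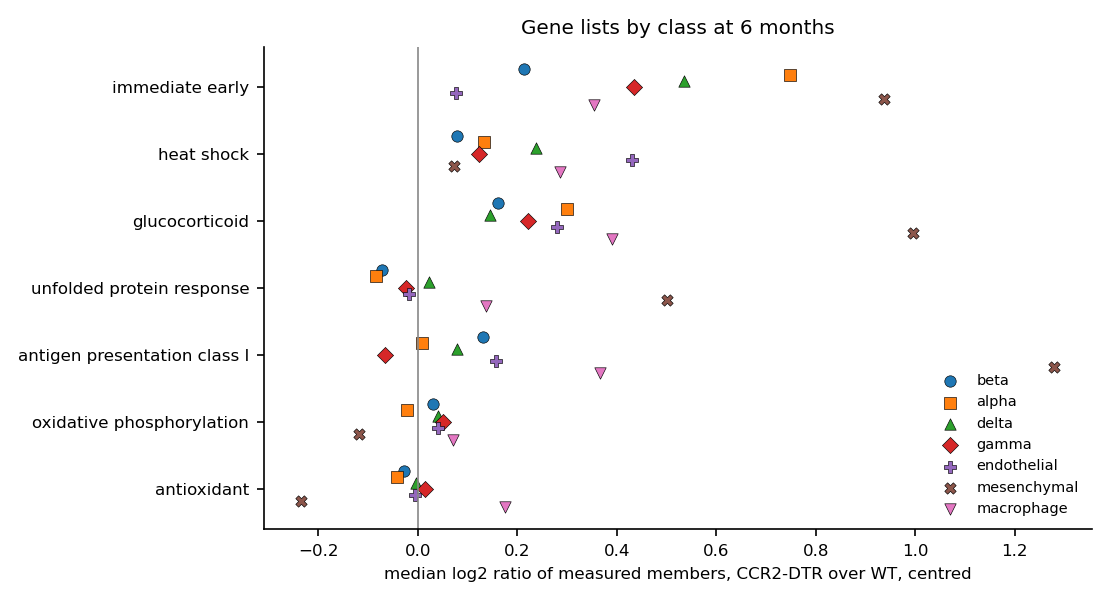
Median centred log2 ratio, CCR2-DTR over WT at 6 months, of the measured members of each gene list in each class. The immediate early row is above the median gene in all 7 classes, from 0.08 in endothelial to 0.94 in mesenchymal barcodes.

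The heat shock list had the most members past 1.5-fold in endothelial barcodes. There 6 of 20 measured members were past 1.5-fold higher (against 1.99% of all measured genes) and the median log2 ratio was 0.43. The 6 were Hsph1, Hspa4l, Cacybp, Hsp90aa1, Hspa8 and Dnaja1. In macrophage barcodes 3 of 15 were past 1.5-fold (against 5.07%, median 0.29), in delta barcodes 3 of 19 (against 0.671%, median 0.24), and in alpha barcodes 2 of 18 (against 0.815%, median 0.13). In beta barcodes 0 of 13 were past 1.5-fold (against 0.266%, median 0.08), and in gamma barcodes 0 of 19 (against 0.363%, median 0.12). In mesenchymal barcodes 0 of 19 were higher and 1 was lower (against 11.4% and 7.05%, median 0.07). At 1 month the endothelial median was -0.05 and 2 members were past 1.5-fold lower in CCR2-DTR.

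Single chaperones had these levels. Hspa8, the constitutive HSP70, was at 1096 CPM in WT and 1703 CPM in CCR2-DTR endothelial barcodes (log2 ratio 0.64, 95% interval 0.56 to 0.71), against 1171 and 1090 CPM at 1 month. Hspa1a, the inducible HSP70, was at 214 and 383 CPM in delta barcodes (0.87) and at 298 and 328 CPM in gamma barcodes (0.15). Hspa1a and Hspa1b are near-identical copies, so the division of reads between them is uncertain. Dnajb1, an HSP40 partner of HSP70, was at 54.7 and 122 CPM in alpha barcodes (1.14), with 86.9 and 65.3 CPM at 1 month.

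Hsph1, a nucleotide exchange factor for HSP70, was higher in the 6 classes where it was measured and past 1.5-fold in endothelial and macrophage barcodes. It was at 55.3 CPM in WT and 98.4 CPM in CCR2-DTR endothelial barcodes (log2 ratio 0.83), with 45.9 and 49.7 CPM at 1 month. In mesenchymal barcodes, below the measuring limit, it was at 43.8 and 43.6 CPM. The 30 bases at chr5:149636287-149636316 (RefSeq, GRCm38.p6, minus strand), just after 1 of its start sites, are shown because they hold a heat shock element. The capitals mark the element, 3 units of GAA or TTC in alternating orientation with 2 bases between units. Such a run occurs, on either strand, in 0.603% of the promoter windows.
Hsph1: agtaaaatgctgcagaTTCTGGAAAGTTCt

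**Figure D4:**
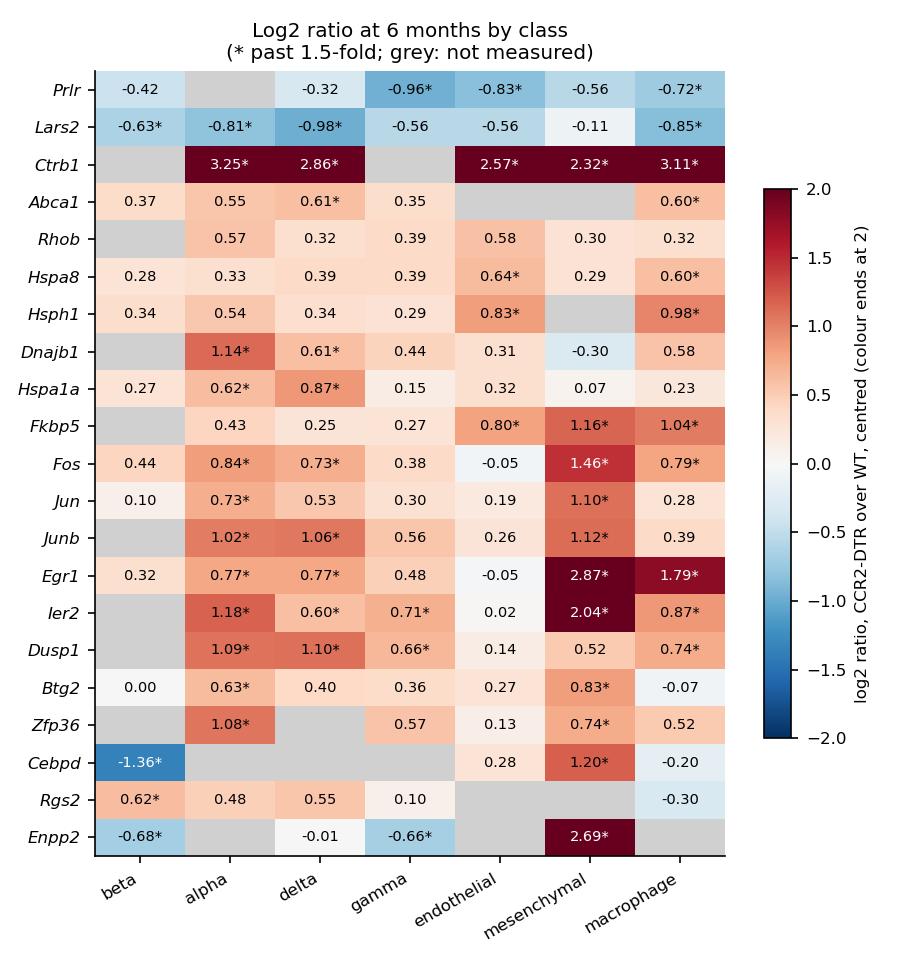
Centred log2 ratio, CCR2-DTR over WT at 6 months, of named genes in each class, with colour ending at a log2 ratio of 2, asterisks for genes past 1.5-fold and grey where a gene was not measured. Prlr is lower in the 6 classes where it was measured, and the immediate early genes are higher in alpha barcodes.

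The unfolded protein response, oxidative phosphorylation and amino acid response lists had at most 1 member past 1.5-fold in each endocrine class. Of the unfolded protein response list 0 members were past 1.5-fold in beta, alpha, gamma and endothelial barcodes. There 19, 15, 17 and 15 members were measured, with medians of -0.07, -0.08, -0.02 and -0.02. Over all measured genes 0.691%, 1.03%, 0.59% and 3.27% were past 1.5-fold in these classes. In delta barcodes 1 of 17 measured members was higher (against 0.671%). It was Herpud1, which acts in the breakdown of misfolded endoplasmic reticulum proteins (170 CPM in WT, 273 CPM in CCR2-DTR). In mesenchymal barcodes 6 of 18 were higher (against 11.4%), with a median of 0.50, and in macrophage barcodes 1 of 18 (against 5.07%, median 0.14). Oxidative phosphorylation genes had medians between -0.02 and 0.05 in the 4 endocrine classes. In gamma barcodes 1 of 58 measured members, Uqcrc1, was past 1.5-fold higher (against 0.363% of all measured genes). Of the 24 entries of the amino acid response list few were measured in the endocrine classes, and 0 were past 1.5-fold there. The medians were 0.25 in beta (9 measured members), 0.24 in alpha (4), 0.44 in delta (3) and 0.27 in gamma barcodes (3), all above the median gene. Shares of all measured genes past 1.5-fold were 0.691%, 1.03%, 0.915% and 0.59% in these classes. The median of the list was also above the median gene in endothelial (0.11), mesenchymal (0.32) and macrophage barcodes (0.55). In macrophage barcodes 2 of 5 measured members were past 1.5-fold higher (against 5.07%). Lars2, a mitochondrial leucyl-tRNA synthetase, was past 1.5-fold lower in beta, alpha, delta and macrophage barcodes. It is a member of a separate list, RNA that is retained in the nucleus or overlaps ribosomal RNA. The part of such RNA in its counts was not tested. In delta barcodes Lars2 was at 129 CPM in WT and 64.2 CPM in CCR2-DTR, with 43.7 and 42.8 CPM at 1 month, so WT at 6 months stood above the other 3.

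Chemokine receptor genes on chromosome 9 were counted almost only in the CCR2-DTR libraries outside macrophages. Over the 6 classes other than macrophages, Ccr3, the eotaxin receptor, had 2 UMIs in WT and 312 in CCR2-DTR (118-fold in CPM, 95% interval 32.4 to 978). Over the same classes Ccr2 had 0 and 145 UMIs. With 3 counts over the group in place of 0 it was 36.6-fold higher, and the exact 95% lower limit was 29.4. On GRCm38 Ccr2 lies at chr9:124101950-124113557 and Ccr3 at chr9:124021972-124031689. Related receptor genes are similar in sequence to Ccr2, so the division of reads between them is uncertain. Other genes nearby did not share the pattern: Lztfl1 had 3332 and 4564 UMIs (1.04-fold) and Ppp2r3d had 933 and 1289 (1.04-fold), while Ccr1 had 0 and 1. At 1 month Ccr3 had 1 UMI in WT and 376 in CCR2-DTR, and Ccr2 had 8 and 196, so both CCR2-DTR libraries were high.

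In macrophage barcodes, where Ccr2 is normally expressed, it was at 227 CPM in WT and 293 CPM in CCR2-DTR (log2 ratio 0.35, 95% interval 0.06 to 0.66), and at 104 and 337 CPM at 1 month. It was thus higher in the CCR2-DTR library at both ages, and short of 1.5-fold at 6 months. Ccr3 had 0 UMIs in WT and 13.1 CPM in CCR2-DTR.

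Genes past 1.5-fold in 1 class only were counted under a stricter rule. The gene had to be measured in at least 3 other classes, none of them past 1.2-fold in the same direction with an interval clear of equality. Its level could not be more than 5-fold below that of another class. Genes measured widely enough and high enough to be counted numbered 1607 in beta, 2011 in alpha, 2300 in delta and 1950 in gamma barcodes. They numbered 2040 in endothelial, 2141 in mesenchymal and 1723 in macrophage barcodes. Under this rule 128 genes were higher and 107 lower, and nearly all belonged to mesenchymal barcodes (98 and 74) or macrophage barcodes (24 and 30). Both classes also had the largest shares of all measured genes past 1.5-fold, 18.5% and 9.03%, against 0.59% to 1.03% in the endocrine classes. Under the stricter rule endothelial barcodes had 5 and 1, among the 5 the chaperone genes Hspa4l and Cacybp and the genes Mlec and Epb41. Among the endocrine classes there were 3 such genes: Cebpd, lower in beta barcodes, Zfp652, lower in delta barcodes, and Uqcrc1, higher in gamma barcodes (36.1 and 53.8 CPM), which was no longer past 1.5-fold without its top barcodes.

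In beta barcodes, Cebpd, a transcription factor of inflammatory and steroid responses, was at 76.2 CPM in WT and 29.4 CPM in CCR2-DTR (log2 ratio -1.36, 95% interval -1.47 to -1.24), with 4.28 and 14.3 CPM at 1 month. It was past 1.5-fold lower in beta barcodes alone. It was at 16.5 and 28.7 CPM in alpha, 77.5 and 94.1 CPM in endothelial and 150 and 315 CPM in mesenchymal barcodes, and had a ratio of -0.20 in macrophage, -0.03 in gamma and -0.01 in delta barcodes. Cish, a feedback inhibitor of JAK-STAT signalling downstream of prolactin and growth hormone receptors, was at 61.7 and 11.4 CPM in beta barcodes (-2.42, -2.58 to -2.26), with 4.93 and 12.97 CPM at 1 month. The WT 6-month library was the highest of the 4 for both genes. Cish was at 9.81 and 1.86 CPM in gamma barcodes and at 9.10 and 10.3 CPM in delta barcodes, under the measuring limit in both.

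The start of Cish is shown because 2 adjacent matches to the STAT motif TTCNNNGAA lie within it. They fall between bases 1 and 20 from the start, in the 30 bases at chr9:107296654-107296683 (RefSeq, GRCm38.p6, plus strand), with the matches in capitals. At least 1 such match is present in 8.30% of the 32851 promoter windows.
Cish: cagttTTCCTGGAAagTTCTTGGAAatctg

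Other beta genes had smaller ratios. Socs2, another feedback inhibitor of the pathway, was at 68.3 CPM in WT and 47.5 CPM in CCR2-DTR, short of 1.5-fold (-0.50). Of the JAK-STAT feedback list 5 members were measured in beta barcodes and 1, Cish, was past 1.5-fold lower (against 0.425% of all measured genes). Enpp2, which makes the lipid mediator lysophosphatidic acid, was at 226 and 139 CPM (-0.68), and Ivd, an enzyme of leucine breakdown, at 53.1 and 33.3 CPM (-0.65). Rgs2, a regulator of G protein signalling, was at 203 and 306 CPM (0.62), with 51.1 and 268 CPM at 1 month. Of 27 measured beta identity genes 0 were past 1.5-fold, which is near the share over all measured genes (0.691% in either direction). Their median was 0.00, and Mafa, a maturity factor of beta cells, was at 367 and 250 CPM (-0.54).

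In alpha barcodes the alpha identity list held 17 measured genes, with a median of 0.05. Of them 0 were past 1.5-fold, near the share over all measured genes (1.03% in either direction). Outside the immediate early and heat shock lists, Basp1, a growth cone protein, was at 147 CPM in WT and 269 CPM in CCR2-DTR (log2 ratio 0.85). At 1 month it was at 179 and 254 CPM, so both CCR2-DTR libraries were above both WT libraries. Basp1 was also past 1.5-fold in gamma barcodes, at 90.3 and 141 CPM. Por, the electron donor of cytochrome P450 enzymes, was at 43.4 and 72.2 CPM in alpha barcodes (0.72). Spp1, osteopontin, was at 76.6 and 36.2 CPM, but 1 barcode held 59% of its WT UMIs, and without the top barcode of each library its ratio was 0.13.

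In delta barcodes the largest ratios came from single barcodes. Igkc, an immunoglobulin light chain, was at 1.01 CPM in WT and 2420 CPM in CCR2-DTR, with nearly all UMIs in 1 barcode, and B cell markers summed to 5.8 and 2448 CPM there. Ghrl, the hormone ghrelin, had 0 UMIs in WT and 263 in CCR2-DTR, 59% of them in 1 barcode. Spread more evenly, Stk32a, a kinase, was at 303 and 189 CPM (log2 ratio -0.65) and Zfp652, a zinc finger repressor, at 95.3 and 61.0 CPM (-0.62). Of the delta identity list 9 members were measured and 0 were past 1.5-fold (against 0.915% of all measured genes in either direction, median 0.05). Gcg was at 3294 and 5975 CPM in delta barcodes, and 2 further alpha identity genes, Ttr and Slc7a2, were past 1.5-fold higher there, though with stricter class thresholds the ratio of Slc7a2 turned to -0.32.

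In gamma barcodes 0.227% of measured genes were past 1.5-fold lower. Among them Pcsk1, a prohormone convertase, was at 51.3 CPM in WT and 33.3 CPM in CCR2-DTR (log2 ratio -0.61), and Enpp2 at 73.3 and 46.0 CPM (-0.66), the same direction as in beta barcodes. Rbm3, an RNA-binding protein induced by cooling, was at 29.8 and 52.2 CPM (0.82). Klhl24, an adaptor of ubiquitin ligases, was past 1.5-fold higher in gamma barcodes (49.3 and 80.2 CPM) and in beta barcodes (39.0 and 64.3 CPM). For Rbm3 and Klhl24 in gamma barcodes WT at 6 months was the lowest of the 4 libraries.

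In endothelial barcodes Cyp26b1, which breaks down retinoic acid, had the largest ratio among the genes named here. It was at 7.75 CPM in WT and 213 CPM in CCR2-DTR (27.5-fold, log2 ratio 4.78, 95% interval 4.05 to 5.63), and at 222 and 45.3 CPM at 1 month. The library low at 6 months was WT and the library low at 1 month was CCR2-DTR. Igfbp5, an insulin-like growth factor binding protein, was at 358 and 81.0 CPM (-2.14), with 42.0 and 4.03 CPM at 1 month, so it was lower in CCR2-DTR at both ages. Thrsp, a lipogenic regulator, was at 274 and 578 CPM (1.08), with 606 and 757 CPM at 1 month.

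Further endothelial genes concerned vessel identity and signalling. Efnb2, the arterial ligand ephrin-B2, was at 382 CPM in WT and 209 CPM in CCR2-DTR (log2 ratio -0.87), Mecom, an arterial transcription factor, at 104 and 43.2 CPM (-1.27), and Tgfb2 at 119 and 47.5 CPM (-1.32). Rgcc, a cell cycle regulator of capillaries, was at 2092 and 3580 CPM (0.78). Plvap, the diaphragm protein of fenestrated capillaries, was at 4075 and 4861 CPM (0.25). Kdr, the main VEGF receptor, was at 3727 and 3229 CPM (-0.21), short of 1.5-fold like Plvap. Of the 27 measured capillary and angiogenic genes 1 was past 1.5-fold higher and 3 lower (against 1.99% and 1.28%).

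Interferon and class I antigen presentation genes in endothelial barcodes were mostly above the median gene. Of 19 measured interferon response genes 16 were above it and 2 past 1.5-fold (against 1.99% of all measured genes), Iigp1 (89.4 and 188 CPM) and Irgm1. Of 15 class I genes 13 were above it and 2 past 1.5-fold (against 1.99%), H2-Q6 (22.7 and 51.9 CPM) and H2-Q7 (53.2 and 86.3 CPM). H2-Q6 and H2-Q7 are near-identical copies, so their split is uncertain. At 1 month the medians of both lists were below the median gene, -0.14 and -0.22. Cdkn1a, a cell cycle inhibitor, was at 379 and 677 CPM (0.84), with 297 and 430 CPM at 1 month. The 16 acinar markers summed to 101 CPM in WT and 878 CPM in CCR2-DTR in the same barcodes, and their part in these differences was not tested.

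**Figure D5:**
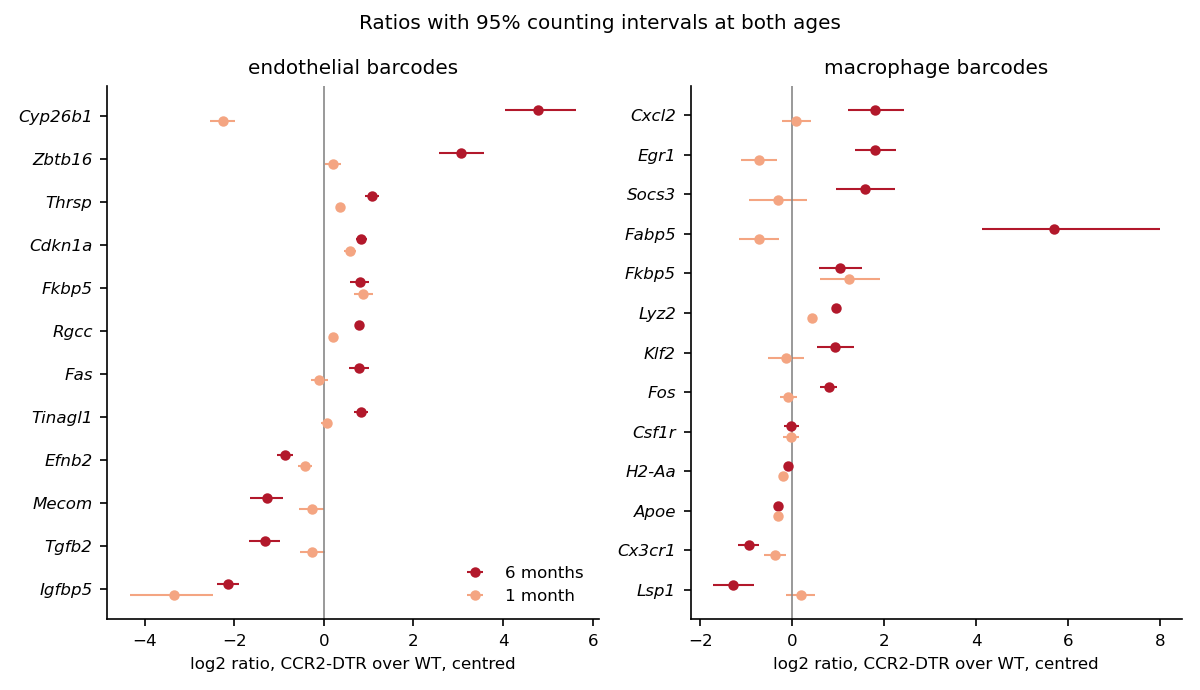
Centred log2 ratio, CCR2-DTR over WT, of named genes in endothelial barcodes (left) and macrophage barcodes (right), with points for the ratio at 6 months and at 1 month and bars for 95% counting intervals. Cyp26b1 is at 4.78 at 6 months and -2.25 at 1 month, and Fabp5 at 5.70 and -0.72.

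In macrophage barcodes the chemokine and NF-kB list had 9 of 15 measured members past 1.5-fold higher, 0 lower, and a median log2 ratio of 1.19 (against 5.07% of all measured genes higher). At 1 month the median was -0.08, with 2 higher and 3 lower. Ccl5 was at 17.5 CPM in WT and 130 CPM in CCR2-DTR (2.88), with 123 and 146 CPM at 1 month. Its UMIs came from 5 and 11 barcodes at 6 months, and a single barcode held 54.5% of them in WT and 49.6% in CCR2-DTR. Cxcl2, which attracts neutrophils, was at 44.5 and 156 CPM (1.79), with 275 and 293 CPM at 1 month. For both, WT at 6 months stood below the other 3 libraries. Vcam1, an adhesion molecule, was at 25.4 and 161 CPM (2.65). Ccl8 was at 6.36 and 293 CPM and Cxcl9 at 20.7 and 158 CPM, but 1 CCR2-DTR barcode held 60% and 58% of their UMIs. Markers of other cells were also higher in the CCR2-DTR macrophage barcodes. The 6 B cell markers summed to 17.5 CPM in WT, with 5 of them at 0, and to 155 CPM in CCR2-DTR. The 7 T cell markers summed to 3.18 CPM, with 6 at 0, and 22.9 CPM, and the 16 acinar markers to 135 and 769 CPM. Their part in the chemokine and interferon results was not tested. Il1b, the inflammatory cytokine, was at 305 and 219 CPM (-0.49).

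Of the interferon response list 7 of 19 measured members were past 1.5-fold higher and 1, Irf9, lower (against 5.07% and 3.97% of measured genes). Gbp2, a guanylate-binding protein, was at 12.7 and 57.7 CPM (2.17), and Irf7, an amplifier of type I interferon, at 27.0 and 80.6 CPM (1.56). Of 8 measured class II antigen presentation genes 0 were past 1.5-fold, which is near the same shares of 5.07% and 3.97%. Only 1 of the 8 was above the median gene. Their median was -0.15, where that of the interferon list was 0.55, and Cd74 was at 40689 and 39980 CPM. Socs3, a feedback inhibitor of cytokine signalling, was at 42.9 and 129 CPM in macrophage barcodes (1.57) and at 35.6 and 69.3 CPM in endothelial barcodes (0.96).

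Genes of macrophage identity did not share 1 direction. Csf1r, the receptor for their growth factor, was at 779 CPM in WT and 775 CPM in CCR2-DTR, and C1qa at 5836 and 6060 CPM. Lyz2, lysozyme, was at 2960 and 5783 CPM (log2 ratio 0.95), with 3360 and 4502 CPM at 1 month. Cx3cr1, the fractalkine receptor, was at 609 and 318 CPM (-0.95), with 526 and 407 CPM at 1 month. Mgl2, a lectin of alternatively activated macrophages and dendritic cells, was at 151 and 58.8 CPM (-1.37). Cd209a, a lectin of dendritic cells, was at 108 and 9.80 CPM (-3.48), but its UMIs lay in 3 WT barcodes and 1 CCR2-DTR barcode, with 72% of the WT UMIs in 1 barcode. With stricter class thresholds its ratio turned to 1.01. The 6 dendritic markers, Cd209a among them, summed to 113 and 23.96 CPM in these barcodes. Nearly all of the WT sum was Cd209a, and the other dendritic markers together were higher in CCR2-DTR. Fabp5, a fatty acid carrier, was at 4.77 and 249 CPM, with 49% of the CCR2-DTR UMIs in 1 barcode. The part of dendritic cells in these values was not tested.

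In mesenchymal barcodes the mixture of cell types differed between the libraries. Barcodes with more fibroblast than pericyte UMIs were 4 of 55 in WT (7.27%, 95% interval 2.02% to 17.6%) and 29 of 90 in CCR2-DTR (32.2%, 22.8% to 42.9%). At 1 month they were 19.5% and 27.8%. Of the extracellular matrix list 28 of 37 measured genes were past 1.5-fold higher in CCR2-DTR (against 11.4% of all measured genes), with a median log2 ratio of 1.12, and of the pericyte and contractile list 8 of 17 were lower (against 7.05% of measured genes lower) and 1 higher. Col1a1, a fibrillar collagen, was at 648 CPM in WT and 2910 CPM in CCR2-DTR (2.29), and 1 barcode held 74% of its WT UMIs. Acta2, smooth muscle actin, was at 2676 and 949 CPM (-1.37). The genes that divided the barcodes belong partly to these 2 lists.

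Restricted to the 51 WT and 61 CCR2-DTR mesenchymal barcodes with more pericyte than fibroblast UMIs, 325 of 4156 measured genes were past 1.5-fold (7.82%). Of the matrix list 3 of 20 were then higher (against 3.75%), with a median of 0.17, and Col3a1 was at 385 and 427 CPM. Immediate early genes were still higher, 7 of 16 (against 3.75%), with a median of 0.56, and Egr1 was at 39.2 and 175 CPM. Of the glucocorticoid list 7 of 15 were higher and 1 lower (against 3.75% and 4.07%), while Fkbp5 was at 35.6 and 35.0 CPM, where over all mesenchymal barcodes it had been at 37.6 and 76.8 CPM. Acta2 was at 2981 and 1694 CPM (-0.79).

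Class I antigen presentation was higher in the mesenchymal barcodes as a whole, with 8 of 11 measured genes past 1.5-fold (against 11.4%) and a median of 1.28. H2-K1 was at 182 and 614 CPM and B2m at 394 and 764 CPM. In the pericyte-type barcodes 2 of 6 measured class I genes were past 1.5-fold (against 3.75%), with a median of 0.38. Mki67, a marker of dividing cells, was at 122 CPM in WT and 2.08 CPM in CCR2-DTR, and nearly all of its WT UMIs came from 1 barcode. Without the top barcode of each library Mki67 and Top2a were no longer past 1.5-fold lower.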

How the data were processed

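The authors deposited raw UMI counts per gene and barcode, made with Cell Ranger 5.0.1 on mm10, per the submitters' processing notes. The other deposited files (unit: other) name the barcodes and the 32285 genes. Neither the annotation release nor the treatment of introns is given in the sources used here. Empty droplets were not analysed here, so free RNA was not subtracted.

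Barcodes needed 1000 or more UMIs, 500 or more genes and no more than 15% mitochondrial UMIs, and those with a Scrublet score above 0.25 (scanpy 1.11.5) were removed as doublets, 87 in WT and 140 in CCR2-DTR at 6 months. That common score was chosen after the data were seen. Barcodes that met the rule of several classes, 139 and 198, stayed out of every class. Counts were summed per class and library, and CPM ratios have exact conditional 95% intervals of 2 Poisson counts (scipy 1.17.1). A count of 0 was set to 3 counts to give a ratio. The calls were tested on simulated Poisson counts, the model that the intervals assume. The simulation held no variation among barcodes, animals or libraries, so it cannot show how such variation affects the calls.

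The members and the 27 gene lists (641 of 648 entries found) were chosen with earlier results of these data known. Genes were named by rule: up to 12 in each direction shared by classes, up to 4 in each direction of each class, and list members past 1.5-fold in at least 2 classes. The lists were immediate early, heat shock, glucocorticoid, JAK-STAT feedback, amino acid response, class I and class II antigen presentation, and hypoxia and glycolysis. Some genes that the rule names are not reported here. Further genes, the promoters, the motifs and the split of mesenchymal barcodes were chosen after values were seen. The motifs were also searched in the 250 bases before the start alone, where Cish and Hsph1 hold 0 matches. The stretches printed are those that hold a match. Alternatives covered doublets, filters, centring, weighting, thinning, class thresholds, the shared fold and, added after seeing the data, leaving out the barcode with the most UMIs of a gene and pericyte-type barcodes.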

Additional observations from a re-analysis of the deposited data

Results flagged for a closer look

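Over the 7 classes, 56 pairs of a gene and a class were past 1.5-fold in opposite directions at 6 months and at 1 month, and the 10 among the genes named here are given below. Some of these genes were named after their values were seen. The difference between the ages was not tested, and each value compares 1 library with 1 library.

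In endothelial barcodes the centred log2 ratio of Cyp26b1, which breaks down retinoic acid, was 4.78 at 6 months and -2.25 at 1 month. For Prlr it was -0.83 and 1.62 there, and in gamma barcodes -0.96 and 0.69. Car4, a carbonic anhydrase of capillaries, was at 133 and 234 CPM in WT and CCR2-DTR endothelial barcodes at 6 months and at 124 and 65.1 CPM at 1 month, ratios of 0.82 and -0.88.

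In macrophage barcodes the ratio of Fabp5 was 5.70 at 6 months and -0.72 at 1 month, that of Egr1 1.79 and -0.72, and that of Mgl2 -1.37 and 0.74. Cd69, an early activation marker of lymphocytes that other leukocytes also express, was at 22.2 and 73.0 CPM at 6 months and at 64.9 and 33.2 CPM at 1 month, ratios of 1.70 and -0.97. In mesenchymal barcodes the ratio of the proliferation gene Mki67 was -5.75 at 6 months and 1.80 at 1 month. Top2a, another proliferation gene, had 26 UMIs in WT and 0 in CCR2-DTR at 6 months. Its ratio was -3.58 with 3 counts in place of 0, and 2.38 at 1 month. Without the barcode with the most UMIs of the gene in each library, 8 of the 10 stayed past 1.5-fold at 6 months, and Mki67 and Top2a did not.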

How the results depend on the processing

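Each group is 1 library, so differences between animals, isolations and libraries cannot be told apart from genotype. A 95% interval leaves out equality for up to 5% of genes with equal levels by counting alone, which weighs most in mesenchymal and macrophage barcodes. No paired analysis was possible because each group holds 1 library and the comparison has no test.

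Ctrb1 was in the set higher in every measured class under the main settings and the other 8 that changed barcodes, counts or the gene floor. With 1.5-fold in place of 1.2-fold, 1 gene was higher and 1 lower in every measured class. Without centring 3 were higher, and 458 mesenchymal genes were past 1.5-fold lower. With a floor of 20 CPM 8 genes were higher in every measured class, without Abca1, Rhob, Hsph1 and Hspa8, and Prlr left the lower set. Abca1 and Hsph1 also left the higher set with equal barcode weights and with thinning, Rhob with stricter thresholds, and Hspa8 and Rhob without centring. That floor gave 14 higher and 17 lower genes in beta, 45 and 9 in alpha, 72 and 50 in delta, 33 and 42 in gamma, 185 and 171 in endothelial and 263 and 211 in macrophage barcodes, with 292 and 300 in 1 class only. Thinning each barcode to 2000 UMIs gave 16 and 16 in beta, 32 and 23 in alpha, 95 and 92 in delta, 68 and 61 in gamma, 145 and 130 in endothelial and 263 and 180 in mesenchymal barcodes, with 213 lower in 1 class only. Weighting every barcode the same gave 9 and 38 in beta and 14 and 9 in gamma barcodes, and 3 lower in alpha and 15 lower in delta barcodes. Stricter class thresholds gave 3 lower in alpha and 3 in gamma barcodes and moved the ratio of beta shares from 1.43 to 1.65. With at least 3000 UMIs the ratio of alpha shares was 0.92, against 1.07. Without the top barcode of each gene 2 genes were lower in alpha barcodes, and pericyte-type barcodes alone gave 156 higher and 169 lower. The cause of each change was not tested, except that a lower floor measures more genes and thinning leaves fewer counts.

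Of 2843 values of named genes under an alternative, 7 turned direction. Spp1 in alpha barcodes became 0.23 with stricter thresholds and 0.13 without the top barcodes, Ctsd, a lysosomal protease, in macrophage barcodes went from 1.03 to -0.13 with equal weights and -0.16 with thinning, Cd209a in macrophage barcodes became 1.01 and Slc7a2 in delta barcodes -0.32 with stricter thresholds, and Top2a became 1.04 without the top barcodes. Of 1120 list medians 6 did. The JAK-STAT feedback median became 0.00725 in beta barcodes and the circadian median -0.00203 in delta barcodes with the lower floor, and the digestive enzyme median in delta barcodes became 3.01 with it and 2.18 with thinning. Thinning also gave -0.041 for JAK-STAT feedback in macrophage barcodes and -0.034 for alpha identity genes in mesenchymal barcodes.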

Other observations

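Barcodes that met no class rule, 911 in WT and 691 in CCR2-DTR at 6 months, had a median of 2134 and 2160 UMIs. Some genes that were higher in the classes had other values there. Fkbp5 was at 116 CPM in WT and 105 CPM in CCR2-DTR. Abca1 was at 129 and 96.7 CPM, a centred log2 ratio of -0.19, and Ctrb1 was at 2457 and 538 CPM, the opposite order to the 5 classes where it was measured. Hspa8 was at 562 and 1110 CPM, Hsph1 at 79.9 and 93.5 CPM, Rhob at 56.3 and 115 CPM and Prlr at 1236 and 513 CPM, in the same direction as in the classes. Ccr2 had 16 and 143 UMIs and Ccr3 had 0 and 33. In barcodes that met the rule of several classes, Prlr was at 95.3 and 108 CPM.

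Erythroid markers were another trace of single barcodes. Summed over 4 genes they were at 170 CPM in WT and 0.71 CPM in CCR2-DTR alpha barcodes, and 204 and 31.0 CPM in endothelial barcodes. In the WT alpha barcodes nearly all UMIs of the globin gene Hbb-bs came from 1 barcode.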
